A study of Mus musculus with 12 samples.

Results

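The genes described here are 10 mouse genes of antigen presentation on MHC class II: H2-Aa, H2-Ab1, H2-Eb1, H2-DMa, H2-Oa, Cd74, Ciita, Cd80, Cd86 and Batf3. Every probe set that the platform annotation assigns to 1 of these symbols alone was taken, whatever its signal, which gave 22 of the 45037 non-control probe sets on the array and 10 of its 18193 named genes. The RNA of 12 arrays was that of spleen cells from 10-week-old DBA/2 mice, kept for 9 days together with KLN-205, a squamous carcinoma line of the mouse. SEMA3A had been knocked down in the KLN-205 cells of all 4 groups, and each culture received interleukin-2 (100 units/mL) every 3 days. The control group had these cells and nothing more. The SEMA6A group had tumour cells that overexpressed SEMA6A, the SEMA3A group had purified SEMA3A protein at 10 µg/mL, and the last group had both factors. Each group had 3 arrays. Whether the arrays of a group stand for different cultures or mice is left unsaid in the labels, and p-values therefore measure only the spread between these samples, which may be technical. The comparisons ask how much RNA of antigen-presenting cells was left in these cultures and whether it differed between the groups.

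MHC class II molecules are heterodimers on the surface of dendritic cells, B cells and macrophages that show peptides to CD4 T cells. Newly made heterodimers are held by the invariant chain Cd74, whose remnant is later exchanged for peptide by H2-DM, and H2-O restrains that exchange, mainly in B cells. The class II genes are switched on through a shared promoter module bound by RFX, CREB and NF-Y, on which the coactivator Ciita acts, and interferon-gamma is an inducer of Ciita. Resting and activated mouse T cells make little class II.

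Letters of the shared promoter module were looked for in promoters of members from the RefSeq promoter table (build GRCm38.p6, strain C57BL/6J). The upstream sequences of 3 of them are shown because class II genes are known for being driven through this module. The search among the members took in 6 of the 10 genes, with 7 promoters. Cd74, H2-Ab1, Ciita and Cd86 were not part of it, so nothing is said of their promoters. In the 250 bases before the start site, 3 of these 7 held the letters CTGATTGG (either strand), which contain the inverted CCAAT core of the Y box that NF-Y binds. The letters GCAAC, part of the X box that RFX binds, lay before them on the same strand. Both are in capitals below, 5′ to 3′ on the gene's strand, and the motifs do not overlap.
H2-Aa (chr17:34287824-34288073, minus strand): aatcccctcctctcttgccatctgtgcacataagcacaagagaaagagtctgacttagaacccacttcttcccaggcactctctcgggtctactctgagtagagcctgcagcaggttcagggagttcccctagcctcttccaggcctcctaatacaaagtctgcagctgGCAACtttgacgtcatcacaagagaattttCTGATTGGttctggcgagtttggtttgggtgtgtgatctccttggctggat
H2-Eb1 (chr17:34305617-34305866, plus strand): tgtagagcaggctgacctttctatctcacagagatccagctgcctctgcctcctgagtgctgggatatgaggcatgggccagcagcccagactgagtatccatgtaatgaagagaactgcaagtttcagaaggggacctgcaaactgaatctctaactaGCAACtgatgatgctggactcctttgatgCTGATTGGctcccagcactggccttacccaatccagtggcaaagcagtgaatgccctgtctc
H2-Oa (chr17:34092129-34092378, plus strand): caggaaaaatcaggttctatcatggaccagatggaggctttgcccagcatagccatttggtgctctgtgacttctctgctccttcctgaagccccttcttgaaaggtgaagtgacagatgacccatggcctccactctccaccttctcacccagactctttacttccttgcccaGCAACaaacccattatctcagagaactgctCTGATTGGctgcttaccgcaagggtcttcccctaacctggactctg

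From the first base of GCAAC to the first base of CTGATTGG there were 30 bases in H2-Aa and H2-Oa and 29 in H2-Eb1. Among all 32851 promoters of the table, 3.83% held CTGATTGG and 29.9% held GCAAC on either strand. The pair in this order at a distance of 29 to 30 bases was found in 5, those of H2-Aa, H2-Eb1, H2-Oa, H2-Eb2 and Stard7, of which the first 4 are class II genes. The letters and the distance were chosen after these sequences had been seen. A match is a description of the reference strain and not a measurement in these cells, and the alleles of DBA/2 mice were not used here.

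The arrays themselves were alike in scale, with medians of 42.5 to 53.5 on the deposited linear scale of signal. SEMA6A replicate 2 stood apart in RNA quality, with a Gapdh 3'/5' control ratio of 1.22 against 0.767 to 0.818 on the other 11 arrays. All 9 measured genes of the T cell list exceeded the array median on all 12 arrays, though not all were bright. Cd3d, a chain of the T cell receptor complex, stood at a median percentile of 99.3 within its arrays, and Cd5 at 62.1. The B cell and plasma cell list had 3 of 15 genes above the array median on every array, namely Cd79b, Ighm and Sdc1. Another 9 were above it on none, among them Ms4a1, Cd79a, Jchain, Tnfrsf17 and Pou2af1, and Cd22 was above it on 11 of 12. The macrophage list had 4 of 15 on every array (Csf1r, Cd68, Cd14 and Ccr2) and 7 on none (C1qa, C1qb, C1qc, Itgam, Mrc1, Mertk and Marco). The dendritic cell list had 7 of 17 on every array and 3 on none. Those 7 dendritic list genes were Id2, Irf8, Ccr7, Itgax, Ly75, Fscn1 and Sirpa, of which at least Id2, Irf8 and Ccr7 are also made by lymphocytes. The 3 were Xcr1, of cross-presenting dendritic cells, Clec10a and Clec4a2. On their brightest probe sets, Flt3 and Zbtb46 of the same list were above the median on 1 and 2 arrays.

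Signals of the class II and costimulatory genes reached from the bottom of the array to its upper part. Of the 22 probe sets, 7 exceeded the array median on all 12 arrays and 8 on none. The filter used for testing asks for a signal above the array's own median on at least 3 arrays, and 11 of the 22 met it, beside 54.1% of all 45037 probe sets. These 11 belong to 8 of the 10 genes (80%), beside 62.2% of all 18193 genes, counting a gene with any probe set above it. The share of probe sets was thus slightly below that of the whole array, and the share of genes was above it. Ciita and Cd86 had no probe set above it. The highest signal of any member was 455, of H2-Ab1, and no member stood above percentile 77.2 of its array. Probe sets differ in how well they bind, so these ranks say how far a signal stands from the bulk of its own array and do not order the genes by RNA amount. In RNA from a mixed culture, fewer cells of a type and less RNA per cell cannot be told apart.

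**Figure D1:**
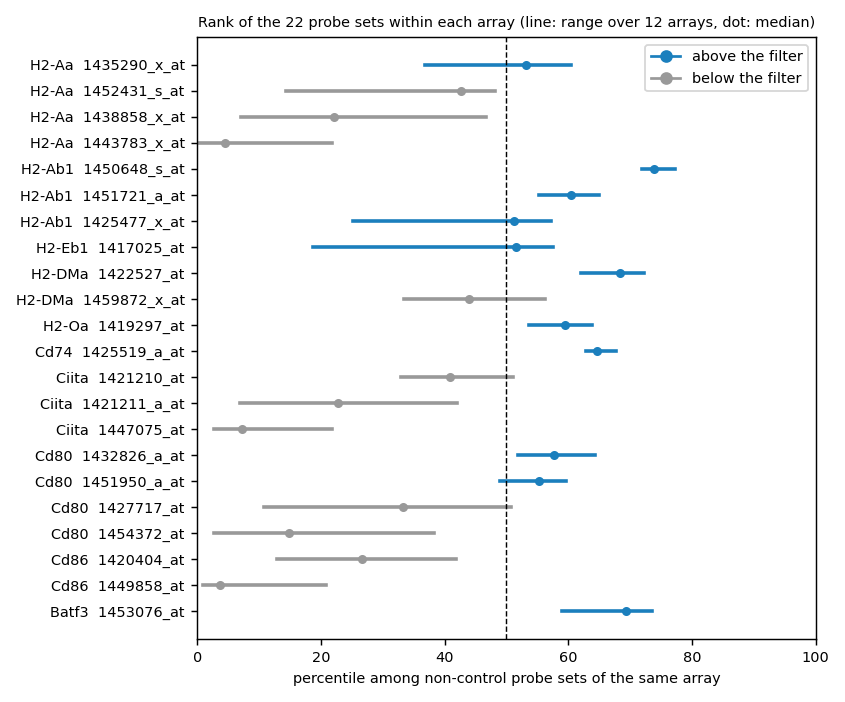
Rank of each of the 22 probe sets among all non-control probe sets of the same array, in percentiles, where the line spans the 12 arrays, the dot is the median and the dashed line is the array median. The 3 probe sets of Ciita and both of Cd86 lie at or left of the dashed line for most or all of their range, while 1 probe set of H2-Ab1 has its median at percentile 73.9.

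The alpha and beta chains of the class II heterodimers were measured first. H2-Ab1, the beta chain of I-A, was read by 3 probe sets above the filter. Its brightest, 1450648_s_at, was at signals of 287.5, 320.8 and 301.6 on the control arrays and 338.1, 400.6 and 346.3 with SEMA6A. With SEMA3A it was at 336.6, 357.3 and 287.0, and with both factors at 455.2, 317.9 and 380.3. The SEMA6A arrays all lay above the control arrays, while the other groups overlapped with the control. Against the control the log2 difference was 0.24 ± 0.14 (SE) with SEMA6A, 0.10 ± 0.14 with SEMA3A and 0.34 ± 0.14 with both (limma adjusted p = 0.558, 0.875 and 0.789). The 95% interval for both factors ran from 0.03 to 0.64, so that a doubling lay outside it. It was 0.22 when the brightest array, replicate 1 with both, was left out.

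The other probe sets of H2-Ab1 did not order the groups in the same way. On 1451721_a_at the control arrays were at 65.4, 113.7 and 85.5 and the SEMA3A arrays at 151.5, 134.5 and 116.8, all above the control. The SEMA6A arrays were at 85.1, 101.9 and 82.3 and those with both factors at 101.4, 122.4 and 94.8. Here the log2 difference was 0.48 ± 0.19 (SE) for SEMA3A against control (limma adjusted p = 0.594) and -0.50 ± 0.19 for SEMA6A against SEMA3A (limma adjusted p = 0.92). Without control replicate 1 the first was 0.31. The third, 1425477_x_at, ranged from 12.7 to 76.4 and had differences from the control of -0.54 with SEMA6A, 0.17 with SEMA3A and -0.38 with both, each with an SE of 0.38. The suffixes s and x mark probe sets whose probes can also bind related transcripts, so the readings of this polymorphic gene family are uncertain where probe sets differ.

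H2-Aa, the alpha chain of I-A, was near or below the array median on all 4 of its probe sets. Its brightest, 1435290_x_at, was at 61.4, 22.5 and 46.9 in the control group, 38.8, 78.3 and 65.6 with SEMA6A, 33.8, 56.2 and 66.6 with SEMA3A, and 73.7, 105.3 and 46.9 with both. All groups overlapped. The log2 differences from the control were 0.32, 0.15 and 0.55, each with an SE of 0.32 (limma adjusted p = 0.717, 0.92 and 0.916). Without control replicate 2, the dimmest array for this probe set, they were 0.02, -0.14 and 0.25. The remaining 3 probe sets of H2-Aa were above the median of no array. H2-Eb1, the beta chain of I-E, had 1 probe set, above the median on 6 of 12 arrays. It was at 56.9, 28.5 and 23.6 in the control group, 6.6, 70.5 and 81.7 with SEMA6A, 47.8, 31.0 and 75.1 with SEMA3A, and 68.9, 77.4 and 32.5 with both. The spread within the SEMA6A group alone, an SD of 40.5 around a mean of 52.9, was wider than any difference between group means.

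Among the genes of loading, H2-DMa encodes the alpha chain of the exchange factor H2-DM. Its brighter probe set, 1422527_at, was at 203.3, 173.2 and 108.3 in the control group and 188.6, 205.0 and 292.0 with SEMA6A. It was at 191.5, 285.2 and 223.0 with SEMA3A and 224.1, 155.1 and 196.9 with both. Each group overlapped with the control. Against the control the log2 difference was 0.45 ± 0.22 (SE) with SEMA6A, 0.48 ± 0.22 with SEMA3A and 0.25 ± 0.22 with both (limma adjusted p = 0.536, 0.61 and 0.98). Control replicate 3 was the lowest of the 12 arrays, and without it these differences were 0.24, 0.27 and 0.04.

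H2-Oa, the alpha chain of the restraining factor H2-O, showed the higher values with SEMA6A. It was at 97.8, 84.5 and 54.5 in the control group, 96.9, 120.7 and 138.7 with SEMA6A, 103.4, 127.4 and 67.0 with SEMA3A, and 81.4, 70.7 and 81.8 with both. All arrays with both factors lay below all with SEMA6A alone, by -0.53 ± 0.22 on the log2 scale (SE; limma adjusted p = 0.457). SEMA6A against control was at 0.47 ± 0.22 (limma adjusted p = 0.53), and at 0.29 without control replicate 3. The interaction, the effect of SEMA6A with SEMA3A minus its effect without, was at -0.74 ± 0.31 for H2-Oa and -0.68 ± 0.31 for H2-DMa (limma adjusted p = 0.288 and 0.323).

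Cd74, the invariant chain that escorts class II heterodimers, had 1 probe set with a narrow spread. It was at 136.3, 118.8 and 120.9 in the control group, 152.6, 131.9 and 152.9 with SEMA6A, 145.2, 194.1 and 127.2 with SEMA3A, and 178.6, 168.8 and 173.6 with both. All 3 arrays with both factors were above all control arrays and all SEMA6A arrays, and overlapped with SEMA3A. With both factors against control the log2 difference was 0.41 ± 0.15 (SE), with a 95% interval from 0.09 to 0.74 (limma adjusted p = 0.696). SEMA6A alone was at 0.15 ± 0.15, and at 0.09 without SEMA6A replicate 1. SEMA3A alone was at 0.23 ± 0.15, and at 0.08 without SEMA3A replicate 2.

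**Figure D2:**
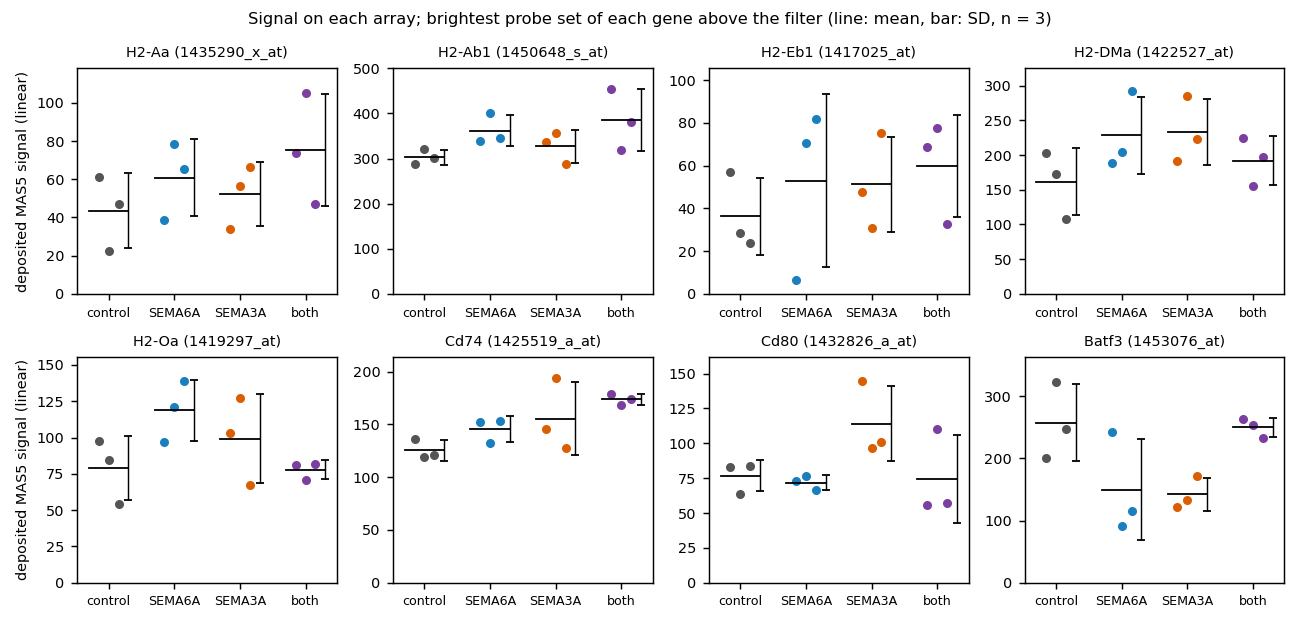
Deposited signal on a linear scale for each of the 12 arrays, for the brightest probe set of each of the 8 genes above the filter, with points for arrays, a line at the group mean and a bar of 1 SD (n = 3). Cd74 with both factors sits at 168.8 to 178.6, above the control arrays at 118.8 to 136.3, and Batf3 is at 233.4 to 263.4 with both factors but at 122.3 to 172.2 with SEMA3A alone.

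Ciita, the master coactivator of class II transcription, stayed below the filter. Its brightest probe set, 1421210_at, was at 27.9, 24.4 and 17.0 in the control group, 33.7, 20.2 and 53.0 with SEMA6A, 36.4, 33.7 and 21.5 with SEMA3A, and 29.3, 42.2 and 24.3 with both. Only SEMA6A replicate 3 was above its array's median. The other 2 probe sets of Ciita were above the median of no array. Signals this low cannot decide whether Ciita differed between the groups.

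The costimulatory ligands Cd80 and Cd86 bind CD28 and CTLA4 on T cells. Of 4 Cd80 probe sets, 2 were above the filter. The brightest, 1432826_a_at, was at 83.2, 64 and 83.5 in the control group and 73.0, 76.3 and 66.2 with SEMA6A. It was at 144.9, 96.5 and 100.8 with SEMA3A and 55.5, 110.6 and 57.2 with both. The SEMA3A arrays lay above all control and SEMA6A arrays. Its log2 difference was 0.42 ± 0.23 (SE) for SEMA3A against control, -0.54 ± 0.23 for SEMA6A against SEMA3A and -0.56 ± 0.23 for both factors against SEMA3A (limma adjusted p = 0.646, 0.92 and 0.412). Without SEMA3A replicate 1 the first was 0.27. The second, 1451950_a_at, was at 39.8 to 64.8 in the control group and 67.7 to 80.1 with SEMA3A, but also at 63.5 to 97.5 with SEMA6A and 46.6 to 94.9 with both factors. The higher level with SEMA3A than with SEMA6A or both was therefore seen on 1 of the 2 probe sets. Cd86 was below the median of every array on both of its probe sets, with a highest signal of 26.8.

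Batf3, a transcription factor needed for cross-presenting dendritic cells and also made by activated T cells, had the smallest F-test p among the members. It was at 201.3, 323.4 and 246.4 in the control group and 242.7, 90.8 and 115.9 with SEMA6A. It was at 122.3, 132.5 and 172.2 with SEMA3A and 263.4, 253.8 and 233.4 with both. The SEMA3A arrays lay below all control arrays and all arrays with both factors, while SEMA6A replicate 1 lay within the control range. Against the control the log2 difference was -0.82 ± 0.29 (SE) with SEMA6A, -0.79 ± 0.29 with SEMA3A and 0.00 ± 0.29 with both (limma adjusted p = 0.525, 0.594 and 1). Both factors were at 0.79 ± 0.29 against SEMA3A alone and 0.82 ± 0.29 against SEMA6A alone (limma adjusted p = 0.376 and 0.454). The interaction was at 1.61 ± 0.41, with a 95% interval from 0.72 to 2.50 (limma adjusted p = 0.241).

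The Batf3 values rest in part on single arrays of the SEMA6A group. Without SEMA6A replicate 1 the SEMA6A difference was -1.22 (limma adjusted p = 0.0494) and the interaction 2.01 (limma adjusted p = 0.0222), and both passed the threshold. That removal also moved the number of all probe sets called from 0 to 199 for SEMA6A and from 0 to 1374 for the interaction. When SEMA6A replicate 2 was left out instead, whose Gapdh 3'/5' ratio was 1.22, the values were -0.55 and 1.34 and did not pass. The part of RNA quality in the Batf3 values was not tested.

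Over all comparisons, no member probe set passed. Of the 11 probe sets tested, limma called 0 for SEMA6A against control, beside 0% of all 24366, and 2 had an unadjusted p under 0.05, a share to be read beside 9.4% of all. For SEMA3A against control the counts were 0 and 3, beside 0% and 8.14%. With both factors against control they were 0 and 2, beside 0% and 5.99%. Both factors against SEMA3A gave 0 and 2 (0% and 11.2% of all), both against SEMA6A 0 and 2 (0% and 10.7%), and SEMA6A against SEMA3A 0 and 2 (0% and 4.6%). The interaction gave 0 and 3 (0% and 15.4%), and a test of any difference between the 4 groups 0 and 1, which was Batf3 (0% and 9.02%). Each count is 1 to 3 of 11 probe sets, several of which read the same gene.

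The direction of the members was uneven. Against control, 7 of 11 probe sets were above 0 with SEMA6A (50% of all probe sets), 10 of 11 with SEMA3A (48.8% of all) and 8 of 11 with both (49.6% of all). The median log2 differences were 0.15, 0.23 and 0.20, beside 0.00, -0.006 and -0.002 over all probe sets. Batf3 was the exception with SEMA3A. These comparisons share the same 3 control arrays, and probe sets of 1 gene share their RNA. After quantile normalization 2 of the 11 lay entirely above the control arrays with SEMA6A (6.28% of all probe sets), 3 with SEMA3A (8.49%) and 1 with both (7.93%), while 0, 1 and 0 lay entirely below them (5.81%, 8.29% and 8.91% of all), the 1 being Batf3. Both factors against SEMA3A had 1 above and 1 below (10.1% and 10.4%), both against SEMA6A 1 and 1 (6.81% and 7.09%), and SEMA6A against SEMA3A 0 and 2 (4.34% and 3.37%).

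**Figure D3:**
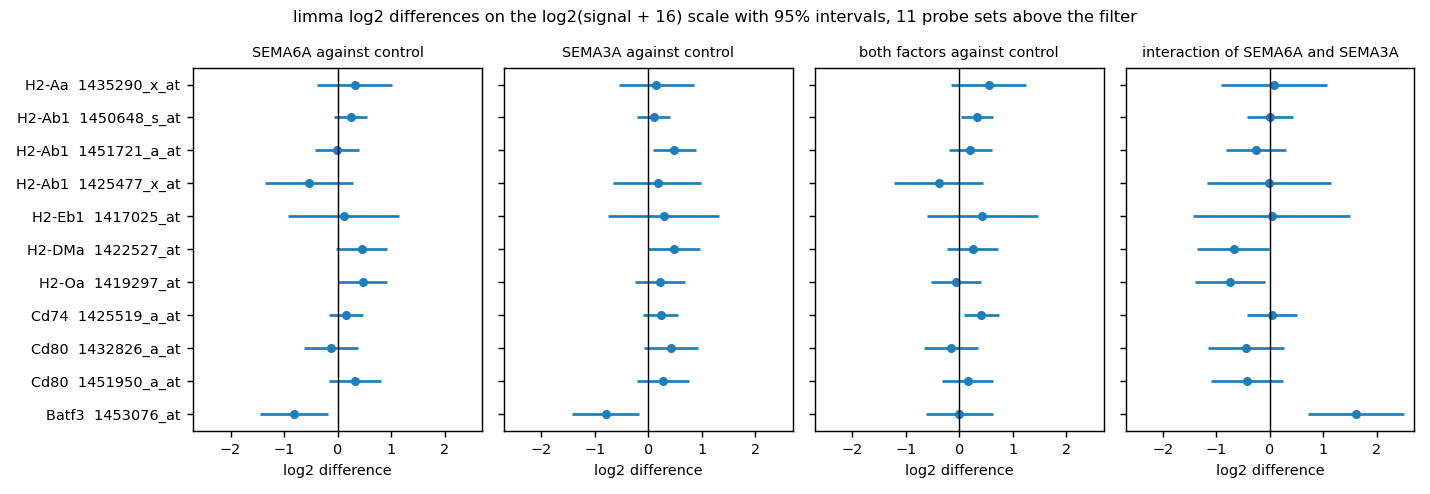
Log2 differences with 95% intervals from limma for the 11 probe sets above the filter, against control for each treated group and for the interaction. Most intervals span 0, and Batf3 stands apart at -0.82, -0.79 and 0.00 against control and 1.61 for the interaction.

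Other genes of the pathway were taken from lists, and none of their probe sets passed in any of the 7 contrasts by limma. Of the class II heterodimer and loading genes outside the members, 5 of 10 were above the filter. H2-Ea, the alpha chain of I-E, and H2-Ob, the beta chain of H2-O, were above the median of no array. Of the lysosomal genes, Lgmn, a protease gene, was above the array median on 1 of 12 arrays, while Ifi30, Ctss, Ctsl and Ctsb were above it on all 12. Ifi30, a thiol reductase that opens antigens, was at 3380 ± 143 (SD, n = 3) on the control arrays and 3460 ± 115 with both, a log2 difference of 0.04 ± 0.09 (SE). Ctss, the protease that trims Cd74, was at 876 ± 170 and 1100 ± 166, a difference of 0.35 ± 0.28. These lysosomal genes are also made by cells without class II. Ctsl and Ctsb had the smallest F-test p of the list, at limma adjusted p = 0.586 and 0.595. Ctsl was at 212 ± 49.0 in the control group, 402 ± 111 with SEMA6A, 342 ± 232 with SEMA3A and 292 ± 18.8 with both (SD, n = 3 each). The second probe set of Ctsb, 1448732_at, was at 808 ± 20.3, 673 ± 310, 918 ± 157 and 590 ± 63.6 in the same order, and its brightest at 2780 ± 277, 3080 ± 1130, 2880 ± 102 and 2520 ± 100.

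Of the genes whose products bind the class II promoter module, the 7 measured (Rfx5, Rfxap, Rfxank, Nfya, Nfyb, Nfyc and Creb1) were above the filter, as were the 6 of interferon-gamma signalling in the same list. Rfx5, of the RFX complex, was at 585 ± 57.0 (SD, n = 3) in the control group, and Nfya, of NF-Y, at 780 ± 31.4. Creb1 was at 1410 ± 166 in the control group, 1590 ± 171 with SEMA6A, 1560 ± 291 with SEMA3A and 1070 ± 197 with both on its brightest probe set (SD, n = 3 each; limma F-test adjusted p = 0.552). The inducer Ifng was at 538, 541 and 543 in the control group, 444, 326 and 248 with SEMA6A, 302, 332 and 534 with SEMA3A, and 677, 662 and 588 with both. All arrays with both factors lay above all others. Its interaction was at 1.46 ± 0.32 (SE; limma adjusted p = 0.241), of the same sign as that of Batf3.

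On the T cell side, Lag3 and Ctla4 had interactions of the opposite sign to that of Batf3, and neither passed. Lag3, an inhibitory receptor that binds class II, was at 299, 173 and 169 in the control group, 257, 988 and 604 with SEMA6A, 620, 646 and 210 with SEMA3A, and 190, 238 and 217 with both. Its interaction was at -2.30 ± 0.61 (SE; limma adjusted p = 0.241). Ctla4, which binds Cd80 and Cd86, was at 1110 ± 76.3 in the control group, 2460 ± 1310 with SEMA6A, 2480 ± 1200 with SEMA3A and 1200 ± 149 with both (SD, n = 3 each), with an interaction of -1.89 ± 0.57 (limma adjusted p = 0.242). SEMA6A replicate 1 and SEMA3A replicate 3 stayed near the control for Lag3 and Ctla4. The same 2 arrays held the highest Batf3 and Ifng signals of their groups. Cd28, the other receptor of Cd80 and Cd86, had interactions of -0.07 ± 0.18 and -0.01 ± 0.13 on its 2 probe sets (limma adjusted p = 0.876 and 0.975). Cd4, which binds class II, was above the median of no array and was not tested. Among the other costimulatory ligands, Pdcd1lg2, a ligand of PD-1, was at 1720 ± 292 in the control group and 1210 ± 210 with SEMA6A. It was at 1570 ± 344 with SEMA3A and 1730 ± 46.0 with both. Tnfsf4, the OX40 ligand, was at 668 ± 60.3, 479 ± 124, 510 ± 55.4 and 579 ± 26.1 in the same order (SD, n = 3 each). Against control, limma adjusted p was 0.525 for each gene with SEMA6A, and 0.86 and 0.608 with SEMA3A.

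**Figure D4:**
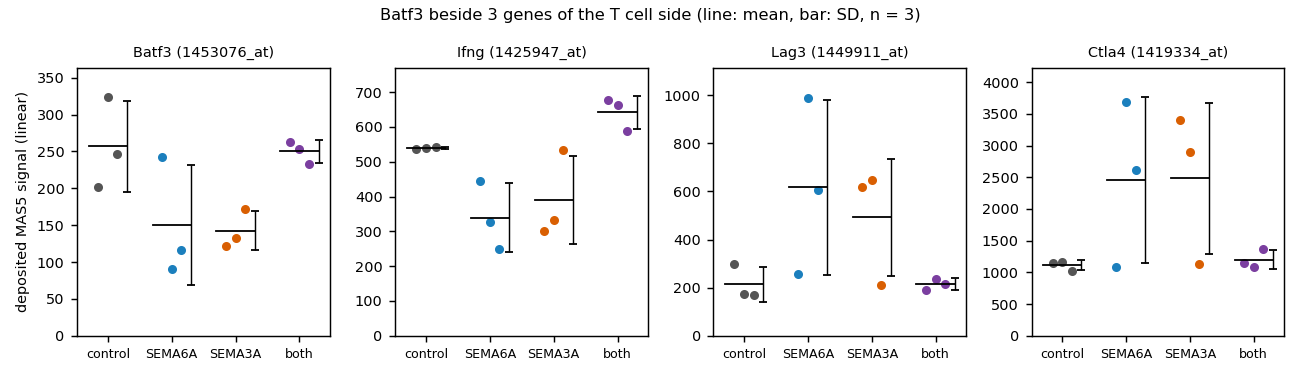
Deposited signal of Batf3, Ifng, Lag3 and Ctla4 on each of the 12 arrays, with points for arrays, a line at the group mean and a bar of 1 SD (n = 3). Batf3 and Ifng are lower with either factor alone (group means of 150 and 142, and of 340 and 389) than with neither or both, and Lag3 and Ctla4 are higher there, each with 1 array per group near the control.

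Markers of the cells that could carry class II were set beside these values. The summed signal of the B cell and plasma cell list, 1 probe set per gene, was 614 to 768 in the control group, 823 to 1340 with SEMA6A, 597 to 1340 with SEMA3A and 823 to 909 with both. Ighm, the IgM heavy chain, gave the widest part of it, at 217 ± 70.8, 472 ± 226, 362 ± 257 and 322 ± 99.8 in that order (SD, n = 3 each; limma F-test adjusted p = 0.599). Sdc1, a proteoglycan gene of this list, was at 53.1 ± 17.7, 50.9 ± 1.41, 33.4 ± 3.55 and 51.6 ± 12.6 on 1437279_x_at, and at 76.8 ± 18, 93 ± 14.5, 89.3 ± 36.8 and 101 ± 9.44 on its brightest probe set. The macrophage list summed to 4350 to 5780 in the control group, 4310 to 7260 with SEMA6A, 4770 to 6870 with SEMA3A and 3940 to 4570 with both, most of it from Ccr2, which lymphocytes also make. The brightest probe set of Ccr2 was at 4300 ± 758, 4960 ± 1320, 5150 ± 966 and 3400 ± 295, and 1421187_at at 962 ± 131, 716 ± 178, 981 ± 108 and 711 ± 29. Cd68, a lysosomal protein of macrophages, was at 223 ± 33.6, 286 ± 29.6, 296 ± 51.8 and 228 ± 32.6. The dendritic cell list summed to 24500 to 26500 in the control group, 16000 to 25000 with SEMA6A, 24700 to 27300 with SEMA3A and 24900 to 28900 with both, mostly from Id2 and Irf8. The 16000 was that of SEMA6A replicate 2, and the other SEMA6A arrays were at 25000 and 22400. Id2, on probe set 1435176_a_at, was at 15500 ± 1420, 12500 ± 1550, 13100 ± 1040 and 16000 ± 982, and Irf8, on 1448452_at, at 3090 ± 92.6, 3460 ± 455, 3350 ± 421 and 2560 ± 238 (SD, n = 3 each; limma F-test adjusted p = 0.552 for both). Their brightest probe sets were at 16400 ± 1410, 11600 ± 4670, 16200 ± 2140 and 17300 ± 1880 for Id2 and 7620 ± 735, 8250 ± 416, 8460 ± 883 and 8120 ± 601 for Irf8. Itgax, an integrin gene of the dendritic cell list, was at 82.4 ± 2.95, 115 ± 25, 140 ± 28.5 and 99.5 ± 9.97. Its log2 difference was 0.60 ± 0.17 (SE) for SEMA3A against control (limma adjusted p = 0.594). In the same comparison Ccr7 was at -0.95 ± 0.41 and Ly75 at -0.16 ± 0.20 (limma adjusted p = 0.594 and 0.852). The median over the 14 tested probe sets of the dendritic cell list was 0.04, so Itgax does not stand for its list. The squamous tumour list, for cells carried over, summed to 2660 to 3160 in the control group, 2610 to 3820 with SEMA6A, 2520 to 3010 with SEMA3A and 2760 to 3100 with both, mostly from Cdh1 and Epcam. Of the 12 genes of the squamous list, 5 were above the array median on every array and 3 on none, namely Krt14, Trp63 and Krt17. Over its 14 tested probe sets the median log2 difference from control was 0.53 with SEMA6A, 0.08 with SEMA3A and 0.04 with both. With SEMA6A 3 of the 14 had an unadjusted limma p under 0.05, all higher, beside 9.4% of all probe sets. The desmosome gene Dsp of this list was at 76.7 ± 43, 160 ± 85.3, 95.2 ± 17.7 and 77.7 ± 20.2, and Perp at 225 ± 40.2, 200 ± 21.5, 178 ± 40.1 and 255 ± 46.5. In the T cell list Cd3e was at 4430 ± 418, 5750 ± 620, 5300 ± 522 and 4630 ± 344 and Cd247, on 1452539_a_at, at 923 ± 24.8, 689 ± 435, 1100 ± 122 and 1010 ± 45.5. The SEMA6A arrays of that probe set were at 974, 189 and 905, with replicate 2 the low one, and the brightest probe set of Cd247 was at 2330 ± 136, 2270 ± 448, 2630 ± 112 and 2440 ± 34.1. The NK cell list had 4 of 6 genes above the array median on all arrays, with the receptor gene Ncr1 at 96.2 ± 12.5, 61.7 ± 19.4, 156 ± 34 and 85.7 ± 45.4 and the adaptor gene Tyrobp at 3010 ± 418, 3520 ± 1610, 3600 ± 890 and 2720 ± 631. None of these genes passed by limma. The part of these cells in the class II values was not tested.

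The genes whose pattern over the 12 arrays was most like that of the heterodimer genes and Cd74 were found by Pearson correlation with the mean standardized log2 level of H2-Aa, H2-Ab1, H2-Eb1 and Cd74, brightest probe sets, among 11317 other genes. They were Hdhd5 (r = 0.90), Iqce (0.87), Ccnd1, the cyclin D1 gene (0.85), Ucp3, a mitochondrial carrier gene (0.84), and Mcur1 (0.83). Ccnd1 was at mean signals of 72.3, 87.6, 92.5 and 121 in control, SEMA6A, SEMA3A and both. These correlations are the highest of many and carry no test, and all values share the same arrays and scaling. None of the 5 is a marker in the lists of antigen-presenting cells used here.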

How the data were processed

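Labelled cRNA made from 6 µg of RNA was hybridised to 12 single-colour arrays, per the labels. The table deposited by the authors gives a linear MAS5 intensity for every probe set, per the submitters' processing notes, and its version was not given in those notes. Averaged over the 12 columns, the mean was 500 once 2% of values had been trimmed at each end. No scanner files were used here. With 3 arrays a group, precision is limited.

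Of 45101 probe sets, 64 were controls. Of the others, 34945 named 1 gene in the platform annotation, 932 several and 9160 none. The gene identifiers of all 10 members were found in the RefSeq table of GRCm38.p6, with the same symbols. Signals were quantile normalized, since array medians differed by a factor of 1.26, and log2(signal + 16) was taken, which understates changes of dim genes. Differences are on that scale, while signals are as deposited. Probe sets above their own array's median on at least 3 arrays were tested (24366). The model was limma 3.58.1 (R 4.3.3) with 1 mean per group on all 12 arrays, with a trended prior (8 residual and 5.28 prior degrees of freedom), and Benjamini-Hochberg adjustment ran over all of them, per comparison, with a threshold of 0.05. All pairs of groups, the interaction and an F-test over the 4 groups were fitted.

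The fit was tested on simulated data with the means and spreads of the 24366 probe sets, drawn 10 times with 200 of them altered between SEMA6A and control.

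The members, gene lists and tests were chosen with earlier results of these data known. Named are all members' probe sets, and of each other list the genes past the threshold or else the 2 with the smallest F-test p. Ifi30, Ctss, Rfx5, Nfya, Itgax, Ccr7, Ly75, Cd5 and single markers given as absent or bright were named after their values were seen. The alternatives tried were the deposited scale as it is, other pseudocounts (1 and 64), testing without a filter or above the 75th percentile, 1 probe set per gene, only the arrays compared, a replicate block, a constant prior and leaving out each array.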

Additional observations from a re-analysis of the deposited data

Results flagged for a closer look

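For 3 members SEMA6A moved every array one way without SEMA3A, relative to the mean of the control arrays, and every array the other way with it, relative to the mean of the SEMA3A arrays. They were Batf3, with an interaction of 1.61 ± 0.41 (SE; limma adjusted p = 0.241), H2-Oa, at -0.74 ± 0.31 (limma adjusted p = 0.288), and H2-DMa, at -0.68 ± 0.31 (limma adjusted p = 0.323). These are 3 of the 11 member probe sets tested, beside 12.7% of all 24366. In Batf3 the same held for SEMA3A without and with SEMA6A, as in 18.8% of all. None of the 3 interactions passed over all 24366 probe sets, of which 15.4% had an unadjusted p under 0.05 for the interaction. Groups of 3 arrays were too small to look for single outlying values.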

How the results depend on the processing

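The count of member probe sets past the threshold was 0 in all 8 comparisons under every alternative run except 1: without SEMA6A replicate 1, Batf3 passed for SEMA6A against control and for the interaction, so those counts ranged from 0 to 1 with single arrays left out. For all probe sets, leaving out single arrays gave 0 to 199 calls for SEMA6A against control, 0 to 1374 for the interaction and at most 7 elsewhere, and fitting only the arrays compared gave 52 for both factors against control and 40 against SEMA3A. Without further normalization 1 was called for both factors against control. Same-numbered arrays did not deviate together (of 18 pairs, 0 had a correlation of deviations over 0.1, from -0.28 to 0.08), so the numbers were not taken as pairs. With the replicate block no member passed either, and the lowest adjusted p of a member was 0.343, for the interaction, against 0.241 without it. Of 34 differences followed, the following changed sign. With a pseudocount of 1, H2-Eb1 for SEMA6A against control was at -0.06. Without further normalization, H2-Oa and Batf3 for both factors against control were at 0.01 and -0.01, and Batf3 was at 0.00 with a pseudocount of 64. With single arrays left out, H2-Eb1 for SEMA6A ranged from -0.25 to 0.76, H2-Aa for SEMA3A from -0.14 to 0.37, and, for both factors, H2-Oa from -0.23 to 0.05, Cd80 from -0.41 to 0.01 and Batf3 from -0.17 to 0.17. Without the filter, all 22 member probe sets were tested and none passed. The 75th percentile filter left only H2-Ab1 to test among the members. Signals near or below the array median limit what can be said of Ciita, Cd86, H2-Aa and H2-Eb1.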
